A study of Mus musculus with 8 samples.

Results

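Of 39 genes that encode MYC, its partner and relatives, nucleolar proteins, ribosome assembly factors and well-known MYC targets, 1 was higher and 4 were lower in menin-deficient pro-B cells, and 34 did not pass the test. The genes were taken by name, as all probe sets whose platform gene symbol is one of the 39, which gave 84 of the 45037 probe sets on the array (an Affymetrix probe set is a group of short probes read as 1 value). Fraction B pro-B cells, early B-cell progenitors carrying B220, CD43 and HSA but not BP-1 (B220+CD43+HSA+BP-1-), came from the bone marrow of 4 control mice of genotype MenF/F and 4 menin-deficient mice of genotype Rag1-cre;MenF/F, at 2 to 3 weeks of age. Both groups carried floxed Men1, the menin gene. Only the menin-deficient mice carried Rag1-cre, whose recombinase is made in early lymphocyte progenitors, so what Cre itself does cannot be told apart from the loss of menin. Each mouse gave 1 array, and the number of arrays limits the precision.

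MYC is a transcription factor that binds DNA as a dimer with MAX, most tightly at the E-box motif, and raises the output of genes for growth. A large share of its known targets act in the nucleolus, where RNA polymerase I makes the ribosomal RNA precursor and where small nucleolar ribonucleoproteins (snoRNPs) and assembly factors cut, modify and fold it into the small and large ribosomal subunits. In B-cell progenitors MYC and N-MYC (Mycn) are needed for growth and division driven by interleukin 7 and the pre-B-cell receptor. Menin, the protein lost here, works with MLL histone methyltransferases at chromatin.

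The E-box letters CACGTG, a palindrome that reads the same on both strands, were searched in the 250 bases before each gene's start in RefSeq sequences of build GRCm38.p6. Sequences matched 32 of the 39 members by symbol, and 4 of these 32 (12.5%) held the motif: Imp4, Nop2, Eif4a1 and Eif4e. No sequence was at hand for Myc, Npm1, Fbl, Srm, Rrs1, Bop1 and Rrp12. It was held by 6.86% of all genes with a sequence and by 9.90% of those that were also tested on the arrays. The stretches around the motif are shown for the members with a single annotated start, with the motif in capitals, so that the letters stand beside the values of these genes. They lie at chr1:34439663-34439758 on the plus strand (Imp4), chr6:125131778-125131873 on the plus strand (Nop2) and chr11:69672562-69672657 on the minus strand (Eif4a1), each 5′ to 3′.
Imp4: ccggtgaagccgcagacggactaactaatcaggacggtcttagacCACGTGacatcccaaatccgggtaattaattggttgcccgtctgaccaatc
Nop2: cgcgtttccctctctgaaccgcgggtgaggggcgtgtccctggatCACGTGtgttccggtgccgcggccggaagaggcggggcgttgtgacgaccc
Eif4a1: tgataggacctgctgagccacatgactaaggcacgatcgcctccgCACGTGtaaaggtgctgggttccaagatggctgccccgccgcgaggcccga
The motif begins 121, 60 and 189 bases before the start in these genes. The 4 members with the motif had log2 differences (menin-deficient minus control) between -0.0033 and 0.21, with a median of 0.10. The 28 without it in the searched stretch ranged from -1.25 to 0.99, with a median of -0.04. Bases after the start were not searched, and these sets of members were not compared by a test. The 120 bases before the start of the members with the widest differences, Max (chr12:76962249-76962368, minus strand) and Mycn (chr12:12941837-12941956, minus strand), hold no such motif.
Max: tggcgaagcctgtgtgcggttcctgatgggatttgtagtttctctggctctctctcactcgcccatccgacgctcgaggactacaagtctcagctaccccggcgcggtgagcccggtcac
Mycn: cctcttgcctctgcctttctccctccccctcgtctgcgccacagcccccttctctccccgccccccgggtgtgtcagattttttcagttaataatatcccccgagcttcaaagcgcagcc

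All values are log2 expression values of the deposited table, on which 1 unit is a doubling and the lowest value is 2.08. Men1 was lower in the menin-deficient arrays, by 1.39 on its brightest probe set. The probe sets behind the pro-B markers were bright in both groups, with a mean over 14 markers of 14.09 to 14.25 in control and 14.24 to 14.33 in menin-deficient arrays. By limma (adjusted p under 0.05) 3 of the 14 were higher, Igll1 by 0.38, Dntt by 0.35 and Blnk by 0.39. Rag1 was lower by 0.28. Over all genes tested the median difference was 0.11, so results are also given after each array was centred on its median tested gene. T cell markers had a list mean of 4.71 to 4.94 in control and 5.64 to 5.80 in menin-deficient arrays, with Cd3e, Cd3d and Cd4 at or near the lowest value (no higher than 2.3) on all 8 arrays. For NK cell markers these ranges were 6.03 to 6.39 and 6.74 to 7.46, and for plasmacytoid dendritic cell markers 6.51 to 6.80 and 7.28 to 7.73. By the same limma fit 5 of 6 tested T cell markers were higher, 3 of 8 NK and 2 of 7 plasmacytoid dendritic cell markers. Of the monocyte markers 2 of 7 were higher, and of the neutrophil markers 0 of 8 (1 at an unadjusted p under 0.05). No marker of these lists was called lower. Beside the marker counts of this paragraph, 16.2% of all genes tested were higher and 5.17% lower. After centring 4 T cell, 3 NK, 2 plasmacytoid dendritic cell and 1 monocyte markers were higher, beside 7.67% of all genes tested. Of the pro-B markers, Dntt stayed higher and Rag1 lower. Of 5 plasma cell markers 1 was higher and 2 were lower, Jchain by 2.85 (limma adjusted p = 0.00643) and Sdc1 by 1.16 (adjusted p = 0.000910), and the list mean was 9.86 to 10.50 in control and 9.53 to 9.88 in menin-deficient arrays. The part of these lists in the members' differences was not tested. In sorted bulk samples fewer cells of a type and less RNA per cell cannot be told apart.

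On the brightest probe set of each gene, the estimated difference was under 0.5 in log2 in 36 of 39 members. In 19 the whole 95% interval lay within 0.5 either way, and the other intervals reach beyond it. The share of all genes tested that differed by less than 0.5 was not counted. The single higher gene is 2.56% of members, against a background of 16.2% of the 11885 genes tested that were higher, and the 4 lower genes are 10.3% against a background of 5.17% (limma, adjusted p under 0.05 over all genes). The 5 called members are 12.8%, against 21.3% of all genes tested called in either direction. The groups did not overlap in 7 members (17.9%), 2 higher and 5 lower, beside 26.3% of all genes tested (20.3% higher and 6.06% lower). A difference of at least 1 was seen in 1 member, Max, and in 4.12% of all genes tested. The median member differed by 0.02 and the median of all genes tested by 0.11. After centring, 0 members were higher and 6 lower (2 and 11 at an unadjusted limma p under 0.05), beside 7.67% higher and 8.17% lower among all genes tested.

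**Figure D1:**
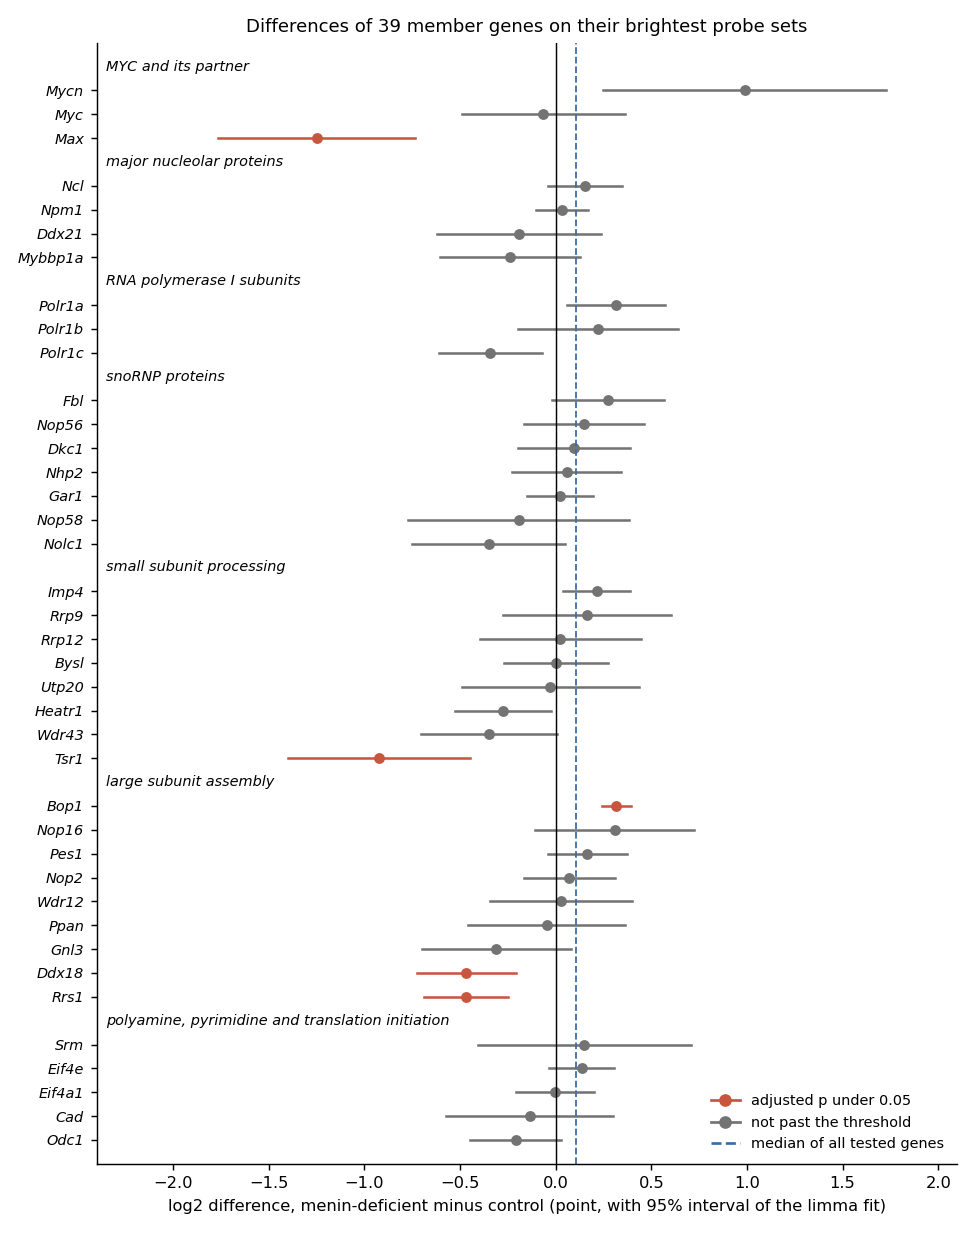
Log2 difference of each of the 39 members (menin-deficient minus control, 4 arrays each) on its brightest probe set, grouped by role. Points are estimates, lines are 95% intervals of the limma fit, red marks adjusted p under 0.05 and the dashed line is the median of all tested genes (0.11). All members but Max, Mycn and Tsr1 lie within 0.5 of 0.

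Of the 3 transcription factors of the group 1, Max, passed the test. Myc itself had values of 10.69, 10.78, 10.42 and 10.80 in control replicates 1 to 4 and of 10.73, 10.45, 10.24 and 11.03 in menin-deficient replicates 1 to 4. The groups overlapped fully, with the lowest and the highest value both in the menin-deficient group. The difference was -0.06 with a 95% interval from -0.49 to 0.36 (limma adjusted p = 0.839), so shifts within that interval are not excluded.

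Max, the obligate partner that MYC, N-MYC and the MXD repressors share, fell. Its values were 6.82, 6.005, 6.65 and 6.69 in control and 4.85, 5.34, 5.48 and 5.48 in menin-deficient arrays. Every menin-deficient array lay below every control array. The difference was -1.25 (SE 0.22, 95% interval -1.76 to -0.74, limma adjusted p = 0.0101), and it was -1.38 after centring (adjusted p = 0.00405). Across the 19 alternatives that kept the gene the difference ranged from -1.43 to -1.10 and the call was kept in each. The fall rests on 1 probe set with a plain _at suffix, the only one named Max, which the stricter of the filters on low values leaves out. Of the menin-deficient arrays 2 hold the identical value for it, and whether its signal there is above background was not tested, so no fold is given.

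Mycn, the family member N-MYC, had values of 6.24, 7.22, 7.18 and 7.001 in control and 7.36, 7.78, 8.58 and 7.88 in menin-deficient arrays. All menin-deficient arrays lay above all control arrays, the nearest by little (7.36 against 7.22). The difference was 0.99 (SE 0.31, 95% interval 0.25 to 1.73), but it missed the threshold (limma adjusted p = 0.0644, and 0.0819 after centring), and over 20 alternatives the adjusted p ran from 0.0267 to 0.133. Replicate 3 of the menin-deficient group, at 8.58, was the highest, and control replicate 1, at 6.24, the lowest. Leaving out either moved the difference no lower than 0.76. The other 2 probe sets named Mycn stayed at the lowest value of the table on all arrays and were not tested.

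Outside the 39 members, the MYC network was followed through a list of its other parts: MXD and MNT repressors that compete for MAX, MLX and its partners, and proteins that bind or degrade MYC. Of 14 tested genes 1 was higher (Mycbp2) and 2 were lower (Mycbp and Mxd4), and after centring 0 were higher (also 0 at an unadjusted limma p under 0.05) and 2 lower. Mycbp, encoding a protein that binds the MYC amino terminus, had values of 12.38, 12.45, 12.43 and 12.33 in control and 11.75, 11.59, 11.49 and 11.38 in menin-deficient arrays, with no overlap. It fell by 0.84 (SE 0.08, limma adjusted p = 0.00190), and it stayed past the threshold under all 20 alternatives. In the fit of single probe sets its other plain probe set was lower as well (-0.25, limma adjusted p = 0.0101), and its _s_at probe sets differed by -0.12 and -0.02.

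Mxd4, a MAX partner that represses E-box genes, is named here after its values were seen. It was at 13.43, 13.39, 13.15 and 13.42 in control and 11.89, 12.08, 12.75 and 12.46 in menin-deficient arrays, and it fell by 1.05 (SE 0.19, limma adjusted p = 0.0109). Its other tested probe sets went the other way, by 0.35 and 0.41, neither past the threshold. The call for Mycbp2, an E3 ubiquitin ligase, was small on its brightest probe set (0.20, adjusted p = 0.0493) and was lost under 16 of 20 alternatives. Its other tested probe sets differed by -0.63 to 0.81, none past the threshold in the fit of single probe sets. The one at -0.63 passed it after centring (limma adjusted p = 0.0295). The further MAX partners Mxd1, Mxd3, Mxi1, Mnt and Mga differed by -0.30, 0.35, 0.16, 0.08 and -0.19, none past the threshold.

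**Figure D2:**
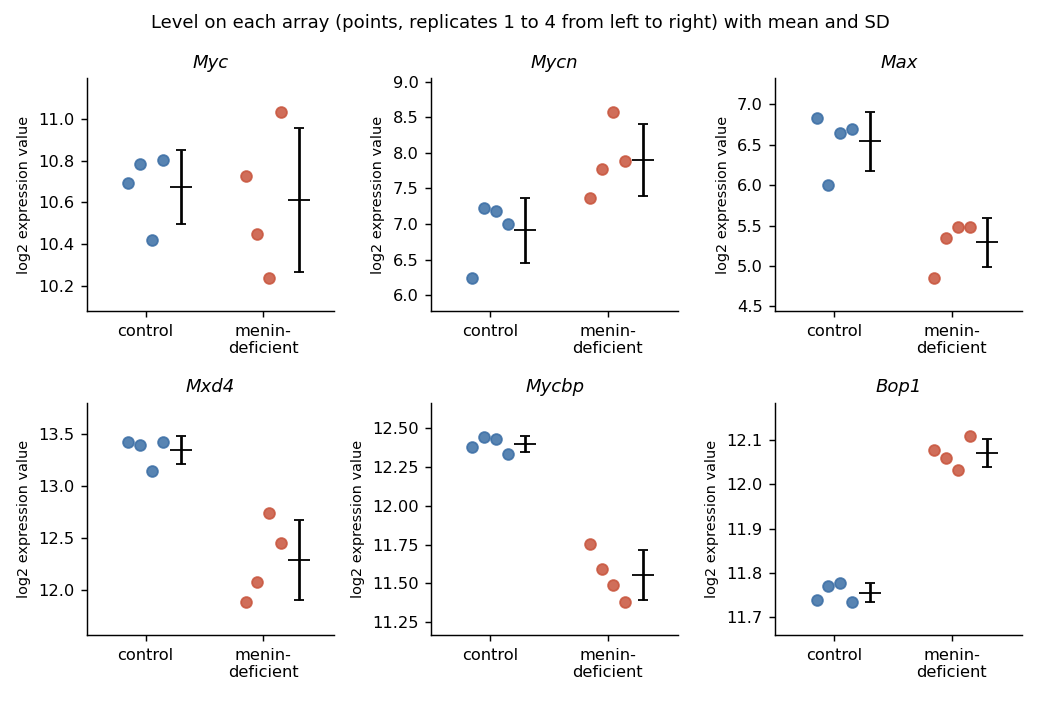
Log2 expression values on each array for 3 MYC family and MAX genes, the MYC network genes Mxd4 and Mycbp, and Bop1. Points are replicates 1 to 4 from left to right, and the bar beside them is the mean with its SD (n = 4); the vertical scale differs between panels. Max, Mxd4 and Mycbp are lower and Bop1 higher on every menin-deficient array, and the groups of Myc overlap.

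The major nucleolar proteins did not pass the test in any of 4 cases (also 0 at an unadjusted limma p under 0.05). Ncl (nucleolin, an abundant RNA-binding protein of the nucleolus) was at 15.83, 15.84, 15.64 and 15.89 in control and 16.05, 16.04, 15.77 and 15.95 in menin-deficient arrays. Control replicate 3 was the lowest and the groups overlapped, with a difference of 0.15 (95% interval -0.04 to 0.35) that was 0.03 after centring, and its other 4 tested probe sets differed by -0.43 to 0.08, none past the threshold. Npm1 (nucleophosmin, a nucleolar chaperone) was at 16.18, 16.04, 16.16 and 16.11 in control and 16.21, 16.20, 16.02 and 16.19 in menin-deficient arrays. Its difference of 0.03 had an interval of -0.10 to 0.17, and its other probe set differed by 0.26 (95% interval 0.04 to 0.48, limma adjusted p = 0.115 in the fit of single probe sets). The helicase Ddx21, which joins rDNA transcription to rRNA processing, differed by -0.19, and Mybbp1a, a MYB-binding regulator of rDNA transcription, by -0.24.

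Of the RNA polymerase I subunits, 0 of 3 passed the threshold (1 higher and 1 lower at an unadjusted limma p under 0.05). Polr1a, the largest catalytic subunit, was at 10.70, 10.83, 10.45 and 10.57 in control and 11.10, 11.03, 10.73 and 10.94 in menin-deficient arrays. Only menin-deficient replicate 3 reached into the control range, and the difference was 0.32 (limma adjusted p = 0.0801). On another plain probe set Polr1a differed by -0.73 (limma adjusted p = 0.142 in the fit of single probe sets). Polr1b, the second catalytic subunit, was at 9.34, 9.37, 9.87 and 9.20 in control and 9.82, 9.56, 9.37 and 9.91 in menin-deficient arrays, which overlapped (difference 0.22). Polr1c, a subunit that RNA polymerase III also uses, differed by -0.34 on its bright _s_at probe set (adjusted p = 0.0741, but 0.0348 after centring) and by 0.23 on its other probe set.

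The snoRNP proteins guide and carry out chemical modification of ribosomal RNA. None of 7 passed, and none did at an unadjusted limma p under 0.05. For Fbl (fibrillarin, the methyltransferase of box C/D snoRNPs) the values were 14.70, 14.97, 14.45 and 14.66 in control and 15.11, 14.96, 14.75 and 15.05 in menin-deficient arrays. The groups overlapped and the difference was 0.27 (95% interval -0.02 to 0.57). Its box C/D partners Nop56 and Nop58 differed by 0.15 and -0.19. In the box H/ACA particle, which makes pseudouridine, the enzyme Dkc1 (dyskerin) differed by 0.09 on its brightest probe set and by -0.18 and -0.72 on its others, none past the threshold, and its partners Gar1 and Nhp2 by 0.02 and 0.06. Nolc1, a chaperone of snoRNPs, differed by -0.35 (adjusted p = 0.185).

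Small subunit processing factors gave 1 fall among 8 genes and no rise (1 higher at an unadjusted limma p under 0.05). Tsr1, a late assembly factor of the 40S subunit, was at 13.35, 13.52, 13.54 and 13.23 in control and 13.04, 12.19, 12.15 and 12.56 in menin-deficient arrays. The groups did not overlap, and menin-deficient replicate 1 lay nearest to the controls. Tsr1 fell by 0.92 (SE 0.20, limma adjusted p = 0.0202) on an _s_at probe set, a kind that can match transcripts of several genes. Its other _s_at probe set differed by 0.13. The call was lost with the mean of both (-0.40) and with the replicate block. It was also lost without control replicate 1 (limma adjusted p just over the threshold) and without menin-deficient replicate 2 (adjusted p = 0.0568).

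The other small subunit factors did not pass the threshold in the main fit. Heatr1, Utp20 and Wdr43, parts of the complex that forms on the nascent rRNA precursor, differed by -0.28, -0.03 and -0.35. Heatr1 was called after centring (-0.40, limma adjusted p = 0.0498) and with sex as a covariate (-0.33, adjusted p = 0.0420). Imp4 and Rrp9, proteins of the U3 snoRNP that is needed for the first cuts, differed by 0.21 and 0.16. Rrp12, an export factor, and Bysl (bystin), a 40S maturation factor, differed by 0.02 and 0.0035.

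Large subunit assembly gave 1 rise and 2 falls among 9 genes. Bop1, a scaffold of the PeBoW complex that matures the 28S rRNA side of the precursor, was at 11.74, 11.77, 11.78 and 11.73 in control and 12.08, 12.06, 12.03 and 12.11 in menin-deficient arrays. The spread was narrow (SD 0.02 and 0.03, n = 4 each), the groups did not overlap, and Bop1 rose by 0.32 (SE 0.03, limma adjusted p = 0.00223), or 1.25-fold. After centring the difference was 0.19 and not past the threshold (adjusted p = 0.0666), and its dimmer probe set differed by 0.03. The other members of the same complex, Pes1 and Wdr12, differed by 0.16 and 0.03.

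Rrs1, which brings 5S RNA and its proteins to the large subunit, was at 14.53, 14.55, 14.63 and 14.41 in control and 14.27, 13.97, 13.88 and 14.11 in menin-deficient arrays, without overlap. It fell by 0.47 (SE 0.09, limma adjusted p = 0.0150) on an _x_at probe set, a kind whose probes can also match unrelated transcripts. On its plain probe set Rrs1 differed by -0.06. The call was lost with the mean of probe sets, without _x_at and _s_at probe sets, with plain ones alone and with the replicate block. Ddx18, an RNA helicase of the large subunit path, was at 12.31, 12.49, 12.50 and 12.18 in control and 12.09, 11.67, 11.89 and 11.95 in menin-deficient arrays. These groups did not overlap either, and the fall of 0.47 (SE 0.11, adjusted p = 0.0250) lay on an _a_at probe set, a kind that matches several transcripts of 1 gene. Both plain probe sets of Ddx18 differed by 0.05 and 0.20. Leaving out any 1 of control replicates 1 to 3 or menin-deficient replicates 2 to 4 ended the call (limma adjusted p between 0.0530 and 0.0581). The call of Ddx18 was also lost without the filter, with the mean of probe sets, with plain probe sets alone and with the replicate block. The rRNA methyltransferase Nop2 differed by 0.07, Nop16 by 0.31, the nucleolar GTPase Gnl3 (nucleostemin) by -0.31 and Ppan by -0.05.

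The enzymes and initiation factors that are textbook MYC targets gave no call in 5 cases (0 at an unadjusted limma p under 0.05). Odc1 (ornithine decarboxylase, the first step of polyamine synthesis) was at 14.31, 14.30, 14.12 and 14.15 in control and 14.10, 14.04, 13.74 and 14.16 in menin-deficient arrays, and the groups overlapped (difference -0.21). An _x_at probe set of Odc1 was at 13.32, 13.51, 13.44 and 13.35 in control and 12.98, 11.35, 11.62 and 11.92 in menin-deficient arrays, lower by 1.44 (limma adjusted p = 0.0328 in the fit of single probe sets), and the remaining one differed by 0.04. Srm (spermidine synthase), Cad (the enzyme that starts pyrimidine synthesis), Eif4a1 (the helicase of translation initiation) and Eif4e (the cap-binding factor) differed by 0.15, -0.14, -0.0033 and 0.13.

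Probe sets of a gene often disagreed. Of the 84 probe sets 77 passed the filter on low values, and the other 7 (of Mycn, Polr1a, Cad, Eif4e and Wdr12) lay at or near the lowest value on all arrays. Among the 77, 1 was higher and 5 were lower, 1.30% and 6.49%, beside a background of 9.34% and 4.87% of the 26790 probe sets tested. That background was not limited to probe sets with a single gene symbol, as the 77 were. Of 26 members with more than 1 tested probe set, 16 had differences of both signs. Of the 5 lower probe sets only that of Max had the plain suffix. Over all genes, 3.77% were lower on plain probe sets, 6.51% on _a_at, 9.61% on _s_at and 18.9% on _x_at probe sets. Control probe sets for repeat elements were lower on every menin-deficient array, with B1 at 12.25 to 12.62 in control and 11.59 to 11.82 in menin-deficient arrays, and B2 at 9.4999 to 9.57 and 8.77 to 8.99, while another B2 probe set overlapped (16.28 to 16.37 and 16.32 to 16.39). Their part in the falls was not tested. With plain probe sets alone 1 member, Bop1, was higher and 1, Max, was lower.

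**Figure D3:**
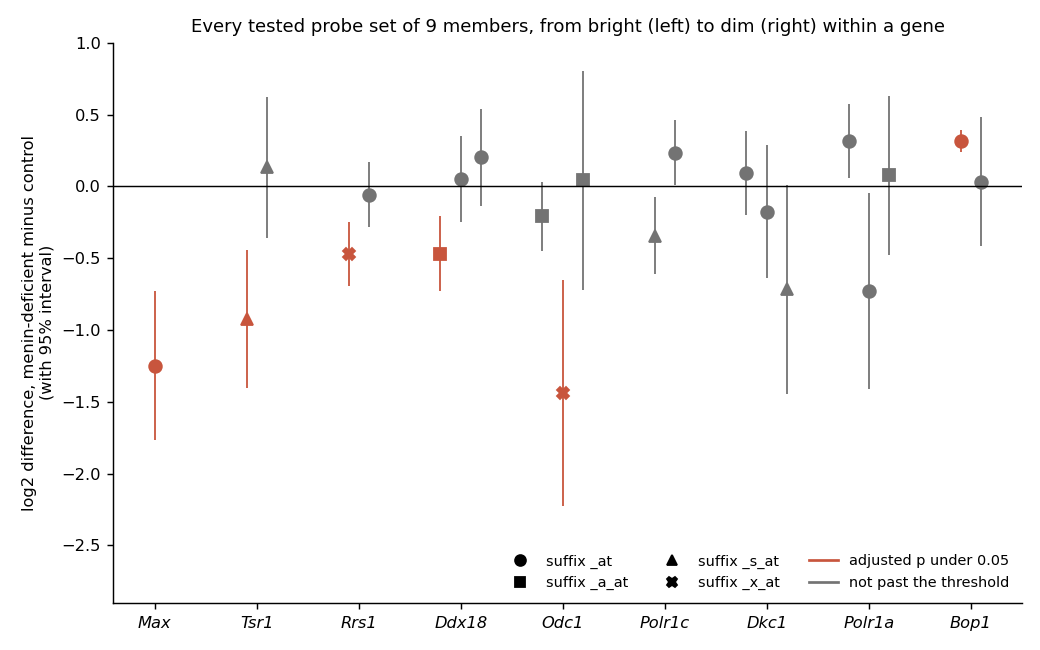
Log2 difference with its 95% interval for every tested probe set of 9 members, from bright to dim within each gene; marker shapes give the probe set suffix and red marks adjusted p under 0.05 over all probe sets. The falls of Tsr1, Rrs1, Ddx18 and Odc1 lie on _s_at, _x_at or _a_at probe sets, while other probe sets of these genes lie near 0; Max has 1 probe set.

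The members moved together from array to array within the menin-deficient group. In replicate 3, 30 of 39 members (76.9%) had their lowest value of that group, against 24.1% of all genes tested, and in replicate 1, 29 (74.4%) had their highest, against 28.1% of all genes. The median deviation of the members from their own means was -0.22 in replicate 3 and 0.18 in replicate 1, while that of all genes tested was 0.05 and 0.02. In control arrays the split was more even, with the lowest value in 8, 3, 15 and 13 members and the highest in 5, 18, 11 and 5 members for replicates 1 to 4. These shares are a description of arrays picked after the values were seen, and the members are not independent of each other.

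Replicate 3 also had the highest menin-deficient means of the monocyte list (7.64, against 6.17 in replicate 1), the NK list (7.46 against 6.74) and the neutrophil list (11.1 against 10.2). The middle 18S rRNA control probe set was at 12.47, 11.96, 12.05 and 12.89 in menin-deficient replicates 1 to 4 and between 12.64 and 12.97 in control arrays. The 3′ to 5′ difference of Actb, a measure of RNA integrity, was 0.93 in replicate 1 and 0.99 in replicate 3, within the range of control arrays (0.86 to 1.11). The part of these measures in the spread of the members was not tested. Without control replicate 1, or without menin-deficient replicate 2, 1 member was higher and 2 were lower. Without menin-deficient replicate 3 the count was 3 higher and 3 lower, with a median difference of 0.08. Without menin-deficient replicate 1 it was 2 higher and 6 lower, with a median difference of -0.04.

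**Figure D4:**
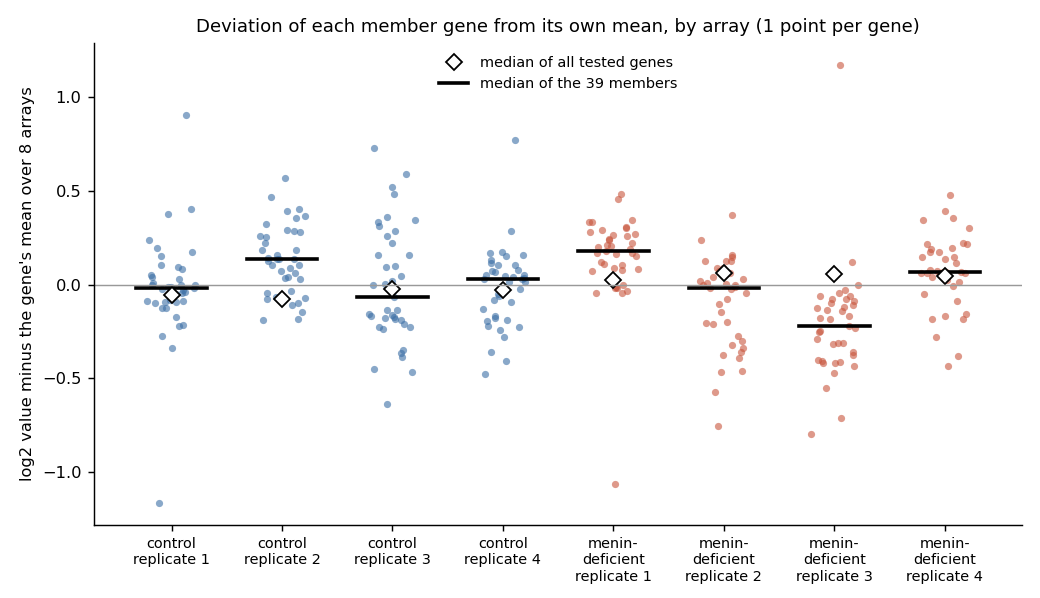
Deviation of each member from its own mean over the 8 arrays, in log2, with 1 point per gene. Black bars are medians of the 39 members and diamonds the medians of all tested genes; the members' median is lowest in menin-deficient replicate 3 (-0.22) and highest in menin-deficient replicate 1 (0.18).

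Other genes of ribosome production were followed through 8 lists that hold no member, the MYC network among them. Of 162 tested genes 14 were higher (8.64%) and 13 lower (8.02%), against 16.2% and 5.17% of all genes tested. After centring 3 were higher (1.85%) and 18 lower (11.1%), against 7.67% and 8.17% of all genes tested. Of the 13 falls 9 lay on _x_at, _s_at or _a_at probe sets, and of the 14 rises 2 did. Over all genes tested, falls were also more frequent on such probe sets (18.9% on _x_at, 9.61% on _s_at and 6.51% on _a_at, against 3.77% on plain ones). Rises were 6.86% on _x_at, 10.9% on _s_at, 19.5% on _a_at and 16.5% on plain ones. The list for small subunit processing gave 4 rises and 4 falls among 42 genes. The list for large subunit assembly, in which Nol10 was counted, gave 3 rises and 4 falls among 43. RNA polymerase I and its factors gave 1 fall among 17 genes, Taf1c, a subunit of the promoter selectivity factor (-0.46, lost under 12 of 18 alternatives). Menin-deficient replicates 2 and 4 hold the identical value for Taf1c (6.96).

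In snoRNP assembly 3 of 9 rose and 0 fell (0 fell at an unadjusted limma p under 0.05): the ATPases Ruvbl1 and Ruvbl2 (0.30 and 0.37) and Znhit3 (0.56). None of these 3 calls was kept after centring. Among exosome genes, which trim and degrade rRNA precursors, Exosc4 rose by 0.56 (12.22 ± 0.214 to 12.78 ± 0.056, SD, n = 4 each, limma adjusted p = 0.0126), a call kept under all 20 alternatives. It was the 1 call among 13 exosome genes.

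The rises with the lowest p after Exosc4 and Tbl3 (0.34), a part of the small subunit processome, were those of Smox, Eif5a2, Rpf1 and Nob1. Smox (spermine oxidase) rose by 0.97 (limma adjusted p = 0.0161) and Eif5a2, a close relative of the hypusine-bearing factor eIF5A, by 0.75 (adjusted p = 0.0182). Both were kept after centring. Rpf1 (0.39) and Nob1 (0.48), which act in large and small subunit maturation, were not.

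Among the falls with the lowest p, Eif4ebp2, an inhibitor that holds the cap-binding factor Eif4e, fell by 0.72 (limma adjusted p = 0.00493) on its brightest probe set and by 1.47 on another, both plain, and differed by -0.02 on its remaining tested one. Its call was kept under all 20 alternatives. Tex10 fell by 0.69 on an _s_at probe set and differed by 0.0017 on its other one. Noc4l was lower by 1.23 and 0.98 on _x_at probe sets and higher by 0.62 and 0.46 on a plain and an _s_at probe set (limma adjusted p = 0.0482 and 0.0351 in the fit of single probe sets). Nsa2 fell by 0.53 on an _a_at and differed by 0.14 on a plain probe set, and Eif4g2 fell by 0.39 on an _s_at probe set while a plain one was higher by 0.42. Nol10, named after its values were seen, fell by 1.18 on its 1 tested probe set, which is plain (6.64 in control and 5.45 in menin-deficient arrays on average), and kept its call under the 19 alternatives that included it. Control replicates 2 and 4 hold the identical value for Nol10 (6.32), and whether its signal is above background was not tested.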

How the data were processed

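Per the labels' protocols, RNA of the sorted cells was amplified in a single round, biotin-labelled and put on Affymetrix mouse genome arrays. The authors deposited 1 log2 value for each probe set (the log base was judged from the range of values). MAS5 and GCRMA appear in the submitters' processing notes, and the sources used here do not say which gave the values.

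Groups come from the sample titles. Within groups, arrays correlated at 0.991 to 0.996. A probe set was kept when it exceeded the 40th percentile of 4 or more arrays. Each gene was read from its brightest kept probe set with a single gene symbol (11885 genes). That percentile lies just above the lowest value, so dim probe sets pass. The comparison used limma 3.58.1 (lmFit, eBayes; R 4.3.3) and called genes at a Benjamini-Hochberg adjusted p under 0.05. The same fit was run on all 26790 kept probe sets, whether or not they had a single gene symbol. The code was tested on simulated data. Genes are named by a rule: every member and, from the other lists, the 6 rises and 6 falls with the lowest p. Mycbp2, Mxd1, Mxd3, Mxd4, Mxi1, Mnt, Mga, Taf1c, Ruvbl1, Ruvbl2, Znhit3, Nol10, Bms1, Krr1 and Gnl2 lie outside it. These genes were named after their values were seen. The members and lists were chosen with earlier results of these data known. Alternatives covered scaling, filters, probe set choice, variance model, array weights, a replicate block, sex, a threshold of 0.10 and leaving out each array. Sex was judged from the level of Xist minus that of Eif2s3y. By this measure control replicates 1, 2 and 4 and menin-deficient replicates 3 and 4 were female and the others male. Plots used matplotlib 3.10.9 in Python 3.11.15.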

Additional observations from a re-analysis of the deposited data

Results flagged for a closer look

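Both groups of 67 genes (the members, the called genes of the other lists and Men1) were searched for an array far from the other 3 of its group, and 6 of 134 groups held one. Chance gives about 1 in 20 groups. Menin-deficient replicate 3 stood apart as the lowest for Npm1 (16.02, the others 16.19 to 16.21), and control replicate 3 as the highest for Dkc1 (14.17, the others 13.97 to 13.99) and for Cad (10.12, the others 9.47 to 9.53). Among genes of the other lists, control replicate 3 was lowest for Mxd4 (13.15, the others 13.39 to 13.43), menin-deficient replicate 3 highest for Taf1c (7.05, the others 6.96), and menin-deficient replicate 1 highest for Noc4l (12.54, the others 11.96 to 12.02).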

How the results depend on the processing

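Of 34 members not past the threshold, 27 were called under none of the 20 alternatives of the gene fit and 7 under at least 1. The fall of Max was kept wherever it was tested. The count of higher members (1) was 0 after centring on the median tested gene and with the mean of probe sets, 2 with the 60th percentile filter and with trended robust eBayes, 3 with the replicate block, and 4 with array weights and at a threshold of 0.10. The count of lower members (4) was 2 without _x_at and _s_at probe sets, and 1 with the mean of probe sets, with plain _at probe sets alone and with the replicate block. Leaving out 1 array at a time gave 1 to 3 higher and 2 to 6 lower members, a median member difference of -0.04 to 0.08, and 1410 to 2255 changed genes in all, the lowest without menin-deficient replicate 2 and, at 1609, without control replicate 1. Changed genes in all (2536) were 1673 without the filter and 1328 with the replicate block. The sample titles number the replicates and do not say whether same-numbered arrays were paired. Deviations of same-numbered arrays from their group means correlated between -0.31 and 0.05, which cannot settle whether they were paired. With the block 7 other pathway genes were higher and 8 lower. The 1 higher member probe set was 0 after centring (limma, 2 at an unadjusted p under 0.05).

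The other pathway genes higher (14) were 3 after centring, 9 without the filter, 23 with array weights and 26 at a threshold of 0.10, and those lower (13) were 4 with the mean of probe sets, 7 without _x_at and _s_at and 4 with plain probe sets alone. Leaving out 1 array at a time gave 5 to 19 higher and 9 to 16 lower, with 6 higher without control replicate 1, and 5 and 9 without menin-deficient replicates 2 and 4. Signs turned where other probe sets stood for a gene. Without _x_at and _s_at probe sets, and with plain ones alone, Bms1 was at 0.16, Krr1 at 0.22, Eif4g2 at 0.013 and Noc4l at 0.62. With plain ones alone Ddx18 was at 0.0496, Gnl2 at 0.12, Mxd4 at 0.35 and Nsa2 at 0.14. These settings test another probe set of the gene. Plain probe sets alone were chosen after seeing the data. The 60th percentile filter leaves out Max and Nol10, and signal at the lowest value of the table left 2 probe sets of Mycn untested.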
